A study of Mus musculus with 10 samples.

Results

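Cd226, Tigit and Cd96, 3 receptors of T cells and natural killer (NK) cells, and Pvr, Nectin2 and Nectin3, 3 genes for their ligands and related adhesion proteins, were followed across tumors of B16F10, a mouse melanoma line. These 6 genes were taken by symbol from the 27919 genes of the expression table, and all 6 were in it and passed the filter on low values. The tumors carried an Ly86 overexpression construct or the vector, and the design asked what Ly86 changed under checkpoint blockade. Every mouse, in both groups, had received 4 rounds of antibodies to PD-1 and CTLA4, so no untreated tumor was measured, and host strain, age and the promoter of the construct were not given in the sources used here. From 7 tumors, 4 with Ly86 and 3 with vector, 10 libraries were made of polyadenylated RNA, since 3 tumors (Ly86 tumor 1, vector tumor 1 and vector tumor 2) had been divided into 2 pieces. Whether each tumor grew in a separate mouse was not given either, so p-values measure the spread between tumors.

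CD226, also called DNAM-1, is an activating receptor that promotes killing of target cells and cytokine release. TIGIT and CD96 are relatives that bind an overlapping set of ligands, and TIGIT inhibits the cells that carry it. PVR (CD155) binds all of these receptors, nectin-2 (CD112) binds CD226 and TIGIT to differing extents, and nectin-3 is best known as a cell adhesion molecule that pairs with other nectins and has also been described as a TIGIT ligand. Melanoma cells commonly carry PVR and nectin-2, and receptor and ligand levels have been studied as determinants of how lymphocytes act on them.

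Values are TPM, transcripts per 1000000 of a library, or log2(TPM + 1), and both scales are per unit of transcript length, so that genes can be set side by side. Read depth is not retained in TPM and is unknown. The overexpressed gene, Ly86, stood at 49.2 to 81.9 TPM in the 5 libraries of Ly86 tumors and at 6.24 to 80.9 TPM in the 5 vector libraries. Whether reads of the construct count toward Ly86 was not given, so these values need not measure the overexpression. Piece 1 of vector tumor 2 gave the highest of these vector values, inside the range of the Ly86 tumors, and piece 2 of the same tumor gave 7.85 TPM. With pieces averaged the log2 difference in Ly86 was 1.69 (SE 0.40, limma adjusted p = 0.437). That piece also held the most summed T cell, macrophage and fibroblast marker TPM of the 10 libraries and the least melanocyte marker TPM. In bulk tumors, a lower level can mean fewer cells of a type or less RNA per cell, and these cannot be told apart. The melanocyte markers Mlana, Pmel, Tyr, Dct, Tyrp1, Mitf and Sox10 summed to between 9752 and 19840 TPM per library.

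Receptor mRNA was scarce and uneven, whereas ligand mRNA was more abundant and even. The 3 ligand genes summed to between 58.6 and 80.4 TPM in every library, and the 3 receptor genes to between 1.78 and 25.1 TPM. The ligand sum was 3.21 to 6.98 times the receptor sum in all 5 Ly86 libraries and in piece 1 of vector tumor 2, and 18.4 to 35.2 times in the other 4 vector libraries. Over the 7 tumors the mean order of levels was Pvr, Nectin2, Nectin3, Tigit, Cd226 and Cd96. Pvr exceeded Nectin2, Nectin2 exceeded Nectin3, and Nectin3 exceeded Tigit in 7 of 7 tumors. Tigit exceeded Cd226 in 5 of 7 tumors, by 0.68 ± 0.75 log2 units (SD, n = 7), and Cd226 exceeded Cd96 in 6 of 7, by 0.65 ± 0.74, so these neighbors did not differ beyond their spread.

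**Figure D1:**
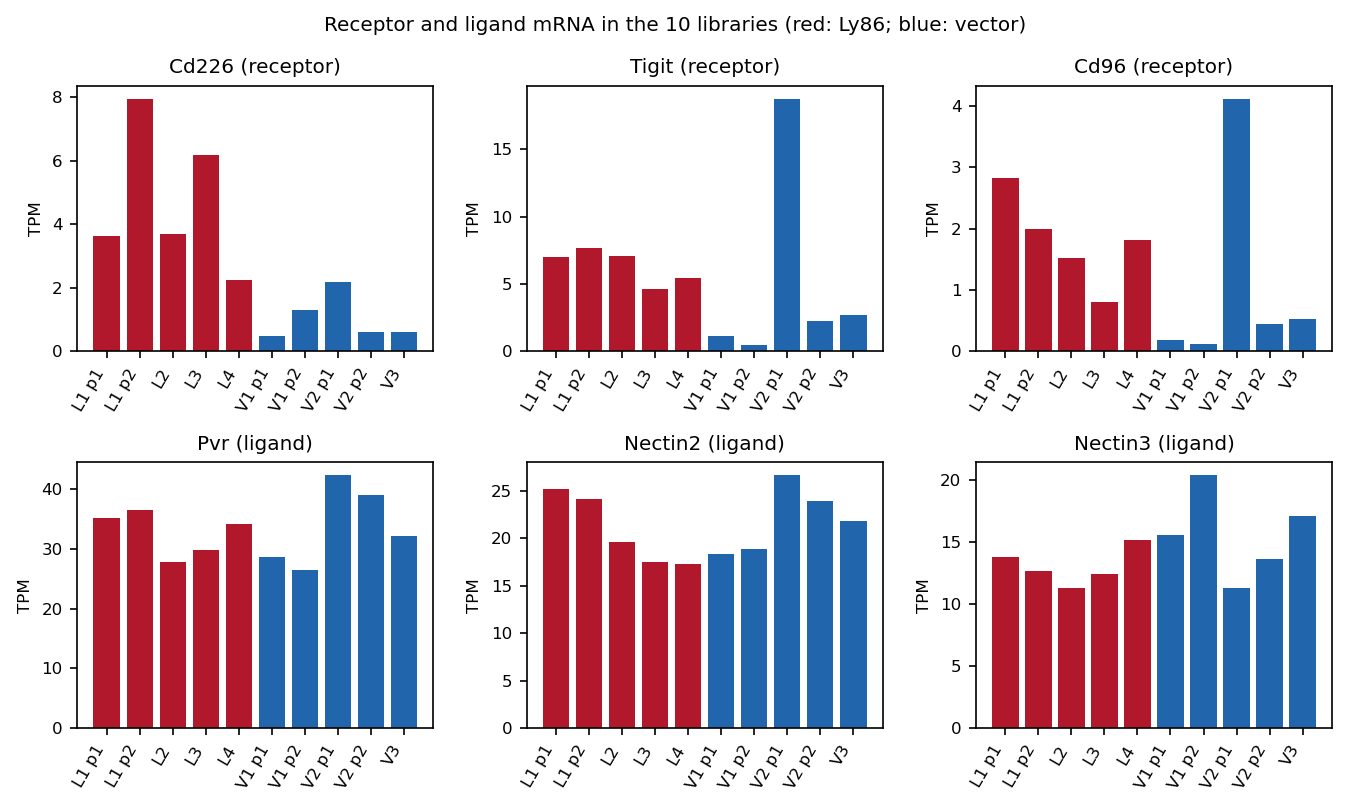
Bars give the TPM of each gene in each of the 10 libraries, red for Ly86 (L) and blue for vector (V) tumors, with p1 and p2 for the pieces of a divided tumor. Cd226 reached 2.26 to 7.96 TPM in the Ly86 libraries and 0.48 to 2.18 TPM in the vector libraries, whereas Pvr, Nectin2 and Nectin3 showed similar bars in both groups.

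Cd226 was the receptor with the widest separation between groups. The pieces of Ly86 tumor 1 held 3.63 and 7.96 TPM, and Ly86 tumors 2, 3 and 4 held 3.70, 6.20 and 2.26 TPM. The pieces of vector tumor 1 held 0.48 and 1.3 TPM, those of vector tumor 2 held 2.18 and 0.61 TPM, and vector tumor 3 held 0.61 TPM. All 5 Ly86 libraries lay above all 5 vector libraries, although the lowest Ly86 value and the highest vector value were close. With pieces averaged, Cd226 was 2.37 ± 0.51 log2(TPM + 1) (SD, n = 4) with Ly86 and 0.92 ± 0.25 (SD, n = 3) with vector. The log2 difference of 1.45 (SE 0.31, 95% interval 0.73 to 2.17) corresponds to a ratio of 2.74 in TPM + 1.

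Fitted over all 14556 tested genes, the Cd226 difference missed the threshold of 0.05 (limma adjusted p = 0.437), as did that of every other gene (0 called, 0% of those tested). Cd226 had an unadjusted limma p of 0.0016 and ranked 44th by p among all genes. It was the only one of the 6 members at an unadjusted p under 0.05, on the higher side, where 5.78% of all tested genes stood, and none of the 6 was on the lower side, where 4.97% stood. Likewise 1 of 6 members, Cd226, had Ly86 tumors that all lay above the vector tumors, against 4.71% of tested genes, and none had them all below, against 5.75%. A single member of 6 is too few to set against these shares. The difference in Cd226 ranged from 1.29 to 1.67 log2 units when single tumors were left out and was 1.62 (limma adjusted p = 0.0920) without piece 1 of vector tumor 2. With limma's array weights, which came to 22.8 for vector tumor 3 and to less than 1 for each of the other tumors, it was 1.60 with an adjusted p of 0.0217. Over all alternative settings the adjusted p of Cd226 ranged from 0.0217 to 1.

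**Figure D2:**
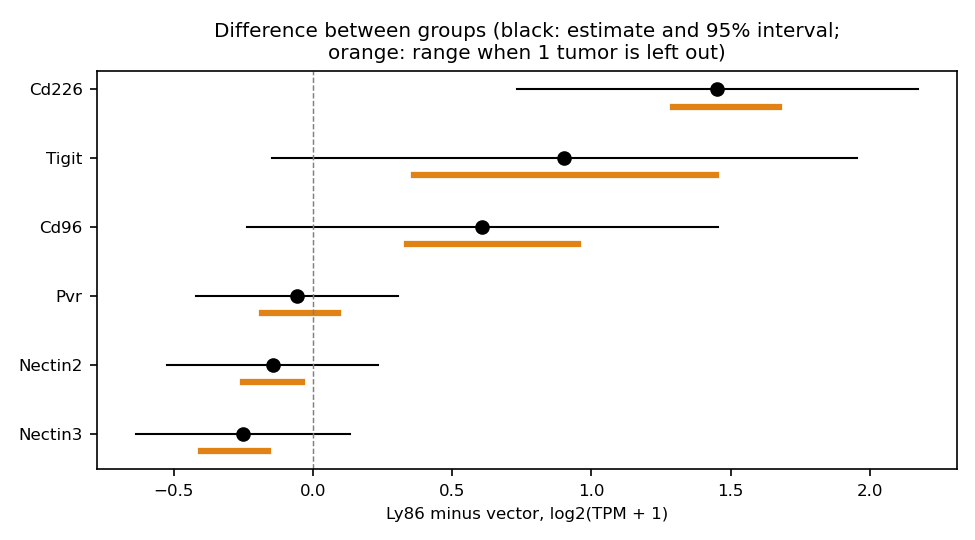
Points and black lines give the limma estimate of Ly86 minus vector in log2(TPM + 1) with its 95% interval for each gene, and orange lines the range of estimates when 1 of the 7 tumors is left out. The interval lies above 0 for Cd226 and spans 0 for the other 5 genes, and the orange range is widest for Tigit, from 0.36 to 1.45.

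Tigit showed a wider spread and overlapping groups. The pieces of Ly86 tumor 1 held 6.98 and 7.68 TPM, and Ly86 tumors 2, 3 and 4 held 7.07, 4.59 and 5.47 TPM. Vector tumor 1 held 1.11 and 0.50 TPM in its pieces, vector tumor 2 held 18.8 and 2.24 TPM, and vector tumor 3 held 2.72 TPM. Thus 4 of the 5 vector libraries lay below all Ly86 libraries and the other, piece 1 of vector tumor 2, lay above them all. The tumors averaged 2.81 ± 0.27 log2(TPM + 1) (SD, n = 4) with Ly86 and 1.91 ± 1.08 (SD, n = 3) with vector. The log2 difference was 0.90 (SE 0.46, 95% interval -0.15 to 1.95, limma adjusted p = 0.511). It was 0.36 without vector tumor 1 and 0.37 when divided tumors were represented by their first pieces. It was 1.45 without vector tumor 2, 1.34 without only piece 1 of that tumor and 1.43 with only the second pieces, the last 2 with limma adjusted p of 0.0951 and 0.0861.

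Cd96 was the scarcest receptor and followed the same order of libraries at its extremes. It held 2.82 and 1.99 TPM in the pieces of Ly86 tumor 1 and 1.53, 0.80 and 1.81 TPM in Ly86 tumors 2, 3 and 4. Vector tumor 1 held 0.19 and 0.12 TPM, vector tumor 2 held 4.12 and 0.44 TPM, and vector tumor 3 held 0.52 TPM. As for Tigit, the highest library was piece 1 of vector tumor 2 and the lowest piece 2 of vector tumor 1. Ly86 tumors averaged 1.36 ± 0.38 log2(TPM + 1) (SD, n = 4) and vector tumors 0.75 ± 0.63 (SD, n = 3), a log2 difference of 0.61 (SE 0.37, 95% interval -0.24 to 1.45, limma adjusted p = 0.577). It was 0.34 without vector tumor 1, 0.33 with only first pieces and 0.95 without vector tumor 2, or 0.91 without only piece 1 of it. With array weights Tigit and Cd96 also passed, at limma adjusted p of 0.0414 and 0.0444, in the fit dominated by vector tumor 3.

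The promoter windows of Tigit and Cd96, receptors that shared their highest and their lowest library, are shown beside that of Nectin2, a ligand gene with an even level. They are RefSeq sequences of build GRCm38.p6, not the build mm39 of the expression table, and span 250 bases before to 50 bases after the annotated start. Tigit lies at chr16:43664135-43664434, Cd96 at chr16:46120199-46120498 and Nectin2 at chr7:19749524-19749823, all on the minus strand and written 5′ to 3′. Of the 6 genes, Tigit, Cd96, Nectin2 and Nectin3 were in the sequence table, and Pvr and Cd226 are named only. Capitals mark, on either strand, the Runx core TGTGGT, the T-box core TCACAC, the Ets core GGAAGT and the cyclic AMP response element TGACGTCA, a choice made after the sequences were seen.
Tigit: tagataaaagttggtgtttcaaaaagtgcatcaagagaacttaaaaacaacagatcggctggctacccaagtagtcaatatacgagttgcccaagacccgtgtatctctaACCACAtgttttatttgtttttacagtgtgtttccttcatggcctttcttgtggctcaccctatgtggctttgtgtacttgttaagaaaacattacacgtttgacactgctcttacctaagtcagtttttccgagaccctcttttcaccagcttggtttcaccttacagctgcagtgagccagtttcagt
Cd96: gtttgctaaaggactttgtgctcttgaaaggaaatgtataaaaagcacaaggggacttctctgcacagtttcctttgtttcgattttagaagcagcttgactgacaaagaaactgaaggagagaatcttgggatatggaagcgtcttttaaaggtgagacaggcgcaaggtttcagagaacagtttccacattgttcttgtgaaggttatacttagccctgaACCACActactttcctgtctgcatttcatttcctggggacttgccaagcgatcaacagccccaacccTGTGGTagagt
Nectin2: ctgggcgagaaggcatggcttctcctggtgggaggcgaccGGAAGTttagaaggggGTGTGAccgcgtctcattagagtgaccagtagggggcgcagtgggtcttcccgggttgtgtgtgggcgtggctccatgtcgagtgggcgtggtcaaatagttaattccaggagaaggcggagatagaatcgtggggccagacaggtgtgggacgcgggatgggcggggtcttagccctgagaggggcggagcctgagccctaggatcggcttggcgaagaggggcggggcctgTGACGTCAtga
The Tigit window held 1 Runx core and the Cd96 window 2, and neither held any of the other 3 motifs. Nectin2 held 1 T-box core, 1 Ets core and 1 cyclic AMP response element and no Runx core, and the Nectin3 window held 1 Ets core alone. Among 32851 promoter windows of the same length, 16.8% held the Runx core, 14.5% the T-box core, 23.8% the Ets core and 1.79% the cyclic AMP response element. CpG dinucleotides numbered 5 in Tigit, 4 in Cd96, 20 in Nectin2 and 40 in Nectin3, against a median of 7 over all windows. These matches describe letters in a window and were not tested as binding sites.

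The 3 receptors differed in how their levels lined up with lymphocyte markers. Summed over Cd3e, Cd3d, Cd3g, Cd247, Cd2, Ncr1, Klrb1c, Klre1 and Klrk1, the T and NK cell markers reached 59.4 and 78.6 TPM in the pieces of Ly86 tumor 1 and 72.1, 31.0 and 52.7 TPM in Ly86 tumors 2, 3 and 4. They reached 4.47 and 4.62 TPM in the pieces of vector tumor 1, 98.3 and 11.8 TPM in those of vector tumor 2 and 28.1 TPM in vector tumor 3. Piece 1 of vector tumor 2, first of all libraries in this sum, was also first in Tigit and Cd96. For Cd226 the same piece held 2.18 TPM, below every Ly86 library. Ly86 tumor 3 stood at the other extreme, with the lowest marker sum among the Ly86 libraries and, at 6.20 TPM, the second most Cd226. Vector tumor 3, with a marker sum close to that of Ly86 tumor 3, held 0.61 TPM of Cd226. The NK cell markers among them did not all follow the sum. Ncr1, Klre1 and Klrk1 were highest in piece 2 of Ly86 tumor 1, at 3.51, 1.84 and 25.5 TPM. That library also had the most Cd226, at 7.96 TPM. Klrb1c was highest in piece 1 of vector tumor 2, at 2.76 TPM.

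**Figure D3:**
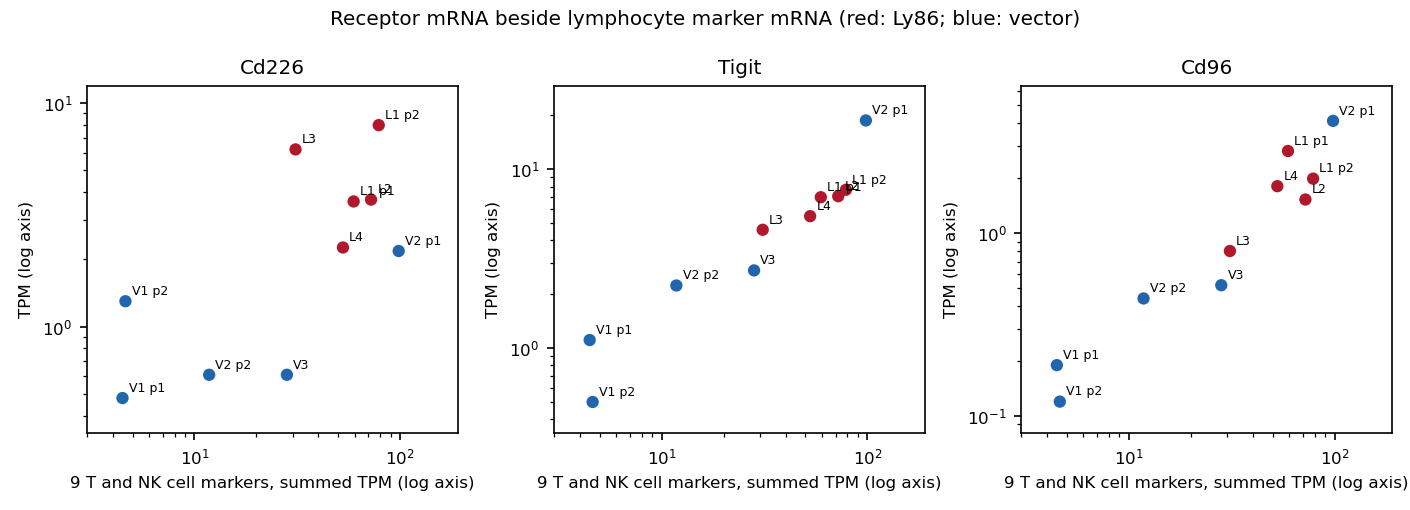
Each panel sets the TPM of 1 receptor against the summed TPM of 9 T and NK cell markers in the 10 libraries, on log axes. Tigit and Cd96 run from vector tumor 1 at the lower left to piece 1 of vector tumor 2 at the upper right, whereas that piece lies below the 5 Ly86 libraries in Cd226.

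Within a tumor, Cd226 was compared with Tigit, Cd96 and the mean of the 9 markers, 3 values tested by exact permutation of the tumor labels (two-sided, 35 assignments), which can give no p below 0.0286. Cd226 minus Tigit was -0.37, -0.78, 0.37 and -0.99 log2 units in Ly86 tumors 1 to 4 and 0.053, -1.82 and -1.21 in vector tumors 1 to 3. The difference between groups, 0.55, had an exact p of 0.343 (0.429 adjusted over the 3 values). Cd226 minus Cd96 was 0.93, 0.89, 2.00 and 0.21 in the Ly86 tumors and 0.68, -0.26 and 0.083 in the vector tumors, with a difference of 0.84 and an exact p of 0.143 (adjusted 0.429). For Cd226 minus the marker mean the Ly86 tumors gave 0.0054, -0.47, 1.00 and -0.65 and the vector tumors 0.33, -0.87 and -1.03, a difference of 0.49 with an exact p of 0.429 (adjusted 0.429). The groups overlapped in all 3 values, so a balance shifted toward Cd226 in Ly86 tumors was not detectable with these tumors. Ly86 tumor 3 weighed most on the Ly86 side. Without it the 3 differences were 0.28, 0.51 and 0.15, and without vector tumor 1, the vector tumor with the most Cd226 relative to the others, they were 1.07, 1.10 and 0.92. Without vector tumor 2 they were 0.13, 0.63 and 0.32, and with only the second pieces 0.19, 0.75 and 0.26.

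As shares of the summed receptor TPM, Cd226 made up 27.0% and 45.2% in the pieces of Ly86 tumor 1 and 30.1%, 53.5% and 23.7% in Ly86 tumors 2, 3 and 4. In vector libraries it made up 27.0% and 67.7% (tumor 1), 8.70% and 18.5% (tumor 2) and 15.8% (tumor 3). The share was thus lowest in 3 vector libraries, and highest in another, piece 2 of vector tumor 1, in which all 3 receptors together came to 1.92 TPM. Tigit made up 74.9% in piece 1 of vector tumor 2, its highest share.

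Markers of other cell types also differed between libraries. Cd226 is found on platelets and their precursors as well as on lymphocytes. Of the 6 platelet and megakaryocyte markers listed, 3 were above the filter, 2 of them higher in Ly86 tumors, and their sum ranged from 76.1 to 306 TPM in Ly86 libraries and from 8.74 to 312 TPM in vector libraries. Pf4, which macrophages can also express, made up most of it, with 301 TPM in Ly86 tumor 3 and 304 TPM in piece 1 of vector tumor 2. Gp9, a subunit of the platelet receptor for von Willebrand factor, was at 0 in all 5 Ly86 libraries, and Gp6, the platelet collagen receptor, was at 0.02 TPM or less in every library. Gp1ba held 0 to 0.59 TPM. Itga2b, the platelet integrin chain, held 0.76 to 2.21 TPM in Ly86 and 0.40 to 4.45 TPM in vector libraries. Ppbp, a platelet chemokine gene, held 0.44 to 4.44 TPM in Ly86 and 0 to 2.25 TPM in vector libraries. It was highest in Ly86 tumor 3, the library with the second most Cd226. In that library Gp9, Gp1ba and Gp6 were at 0 and Itga2b held 0.80 TPM. Piece 2 of Ly86 tumor 1, with the most Cd226, held 2.12 TPM of Ppbp. The macrophage markers were higher in Ly86 tumors in 8 of 8, 7 at an unadjusted p under 0.05, 5 without overlap and 0 passing limma. Over all tested genes, 5.78% stood at an unadjusted p under 0.05 and 4.71% without overlap, each on the higher side. The macrophage markers summed to 914 to 1688 TPM in Ly86 and 164 to 2702 TPM in vector libraries. The fibroblast markers Col1a1, Col1a2, Dcn, Lum and Pdgfra were higher in 5 of 5, all 5 at an unadjusted p under 0.05, 4 without overlap and 0 passing limma, with a median log2 difference of 1.47 and the largest for Dcn, at 2.39. They summed to 553 to 1526 TPM in Ly86 and 71.8 to 2752 TPM in vector libraries. Whether any of these cell types had a part in the Cd226 difference was not tested.

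Regulatory T cells are known for high Tigit. Their markers Foxp3, Il2ra, Ikzf2, Ctla4 and Ccr8 summed to 22.8 TPM in piece 1 of vector tumor 2, which had the most Tigit, and to 4.80 TPM in its piece 2. In Ly86 libraries this sum was 5.65 to 10.4 TPM. Ctla4 made up 14.3 of the 22.8 TPM in piece 1 of vector tumor 2. Foxp3 held 1.74 TPM and Ikzf2 2.87 TPM there, against highest Ly86 values of 1.27 and 2.81 TPM. Ccr8 held 1.51 TPM there, against at most 0.72 TPM in Ly86 libraries. Il2ra, at 2.34 TPM, was lower there than in piece 2 of Ly86 tumor 1, at 3.29 TPM. The 2 markers above the filter, Ikzf2 and Ctla4, differed between groups by 0.27 and 0.18 log2 units (limma adjusted p = 0.749 and 0.938). The T cell markers had 11 of 11 members higher in Ly86 tumors, 0 passing limma over all genes and 5 at an unadjusted p under 0.05 (5.78% of all tested genes on that side), with a median log2 difference of 1.17. Over all tested genes the median was -0.037. Their sum was 47.7 to 104 TPM in Ly86 libraries and 6.33 to 158 TPM in vector libraries. For NK cells, 1 of 6 markers, Klrk1, passed the filter, and the summed markers ran from 9.08 to 36.6 TPM in Ly86 and 1.5 to 29.1 TPM in vector libraries. Whether these cell types account for the Tigit and Cd96 values was not tested.

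The ligands varied little. Pvr, the ligand shared by the 3 receptors, held 35.3 and 36.6 TPM in the pieces of Ly86 tumor 1 and 27.7, 29.8 and 34.2 TPM in Ly86 tumors 2, 3 and 4. It held 28.7 and 26.4 TPM in vector tumor 1, 42.4 and 39.1 TPM in vector tumor 2 and 32.1 TPM in vector tumor 3. The highest and the lowest library both belonged to the vector group, which enclosed the Ly86 range. Ly86 tumors averaged 5.03 ± 0.17 log2(TPM + 1) (SD, n = 4) and vector tumors 5.09 ± 0.28 (SD, n = 3), a difference of -0.057 (SE 0.16, limma adjusted p = 0.934). The 95% interval, -0.42 to 0.31, spans changes of either sign of up to those sizes. The sign turned without Ly86 tumor 2 (0.0059), without vector tumor 2 (0.090) and with array weights (0.0077).

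Nectin2 held 25.3 and 24.2 TPM in the pieces of Ly86 tumor 1, 19.6, 17.5 and 17.3 TPM in Ly86 tumors 2 to 4, 18.4 and 18.9 TPM in vector tumor 1, 26.7 and 24 TPM in vector tumor 2 and 21.9 TPM in vector tumor 3. The groups overlapped, with 3 of 4 Ly86 tumors in the lower part of the range. The log2 difference was -0.14 (SE 0.16, 95% interval -0.52 to 0.23, limma adjusted p = 0.790). Leaving out Ly86 tumor 1 gave -0.25, vector tumor 1 also -0.25, and vector tumor 2 -0.041.

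Nectin3 held 13.8 and 12.7 TPM in the pieces of Ly86 tumor 1 and 11.2, 12.4 and 15.1 TPM in Ly86 tumors 2, 3 and 4. Vector tumor 1 held 15.6 and 20.4 TPM, vector tumor 2 held 11.3 and 13.7 TPM, and vector tumor 3 held 17.1 TPM. The estimate had the opposite sign to those of the receptors, with the 2 highest tumors in the vector group and vector tumor 2 within the Ly86 range. The log2 difference of -0.25 (SE 0.17, 95% interval -0.63 to 0.13) had a limma adjusted p of 0.613. It was -0.40 without vector tumor 2 (limma adjusted p = 0.248), -0.16 without vector tumor 1 and -0.29 without piece 1 of vector tumor 2. Piece 1 of vector tumor 2, highest of the vector libraries in all 3 receptors and in Pvr and Nectin2, was the lowest of them in Nectin3.

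The pieces of vector tumor 2 differed more in the 3 receptors than in the 3 ligands. There, piece 1 held 8.37 times the Tigit of piece 2 (18.8 against 2.24 TPM), 9.36 times the Cd96 and 3.57 times the Cd226. The log2(TPM + 1) gap between these pieces was 2.61 for Tigit and 0.98 for Cd226, against a group difference of 0.90 and 1.45. For Pvr and Nectin2 the same pieces differed by 1.08 and 1.11 times, and for Nectin3 by 0.83 times. In Ly86 tumor 1, piece 1 held 0.46 times the Cd226 of piece 2 and 0.91 times the Tigit. Vector tumor 1 showed opposite directions for the 2 receptors, with Cd226 higher in piece 2 and Tigit higher in piece 1, at levels of 1.3 TPM or less. Its gap in Cd96, 0.087 log2 units at 0.19 and 0.12 TPM, was smaller than those in Pvr (0.12) and Nectin3 (-0.37, higher in piece 2). Only single libraries stand behind each piece, so these gaps have no replicate error.

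**Figure D4:**
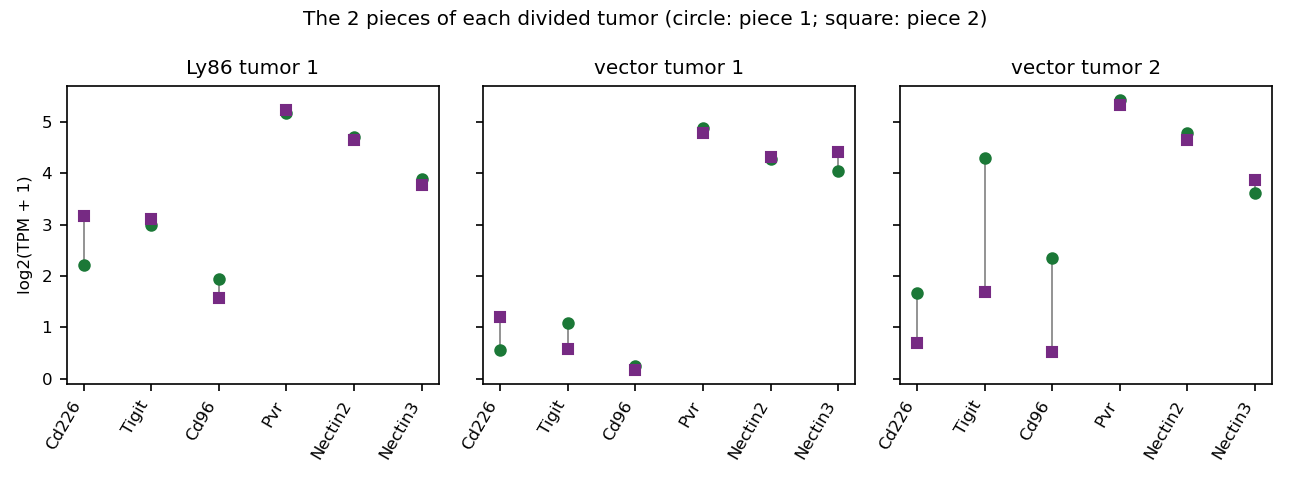
For the 3 divided tumors, circles give piece 1 and squares piece 2 in log2(TPM + 1) for each gene, joined by a line. The longest lines are those of Tigit and Cd96 in vector tumor 2, at 2.61 and 1.83 log2 units, and the lines of Pvr and Nectin2 stay within 0.15.

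Likeness to other genes was measured over the 10 libraries as the root mean square difference of log2(TPM + 1) values after each gene's mean was subtracted, a description that includes pieces of the same tumor. Closest to Cd226 were H2-M2, a nonclassical MHC class I gene (0.41), F7, coagulation factor VII (0.42), and Aldh1a2, a retinoic acid synthesis enzyme (0.42), beside a spread of Cd226 itself of 0.87. These distances were larger than those of the other receptors. Tigit was closest to Ptpn22, a lymphocyte tyrosine phosphatase (0.20), B4galnt1, a ganglioside synthesis enzyme (0.21), and the receptor gene Gpr141 (0.25), with a spread of 1.04. For Cd96, with a spread of 0.70, the nearest were Tnfrsf18, which encodes GITR (0.16), Icos, a T cell co-stimulator (0.18), and Il13ra1, a cytokine receptor subunit (0.18). Cd96 lay 0.42 from Tigit and 0.75 from Cd226, and Cd226 lay 0.87 from Tigit. By this measure Cd96 ranked 177th among the genes nearest to Tigit, and Tigit 610th among those nearest to Cd96.

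Among the ligands, Pvr and Nectin2 lay 0.14 apart, with spreads of 0.21 each, and Nectin3 lay 0.38 from Pvr and 0.37 from Nectin2. Pvr was closest to Maml1, a Notch coactivator (0.088), and Pdlim5 (0.10). Nectin2 was closest to Ilrun (0.076), Ehd1, which acts in endosome recycling (0.080), and Tmcc1 (0.080). Nectin3, with a spread of 0.24, was closest to Abce1, a ribosome recycling factor (0.063), Alg10b (0.065) and Kif11, a mitotic kinesin (0.066). Genes with so little spread lie close to many others, so small distances here are easily reached.

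Of 8 related receptors and adhesion partners, 6 were tested, 4 of them higher and 2 lower in Ly86 tumors with a median log2 difference of 0.20, and 0 passed limma. Leaving out Ly86 tumor 1 gave a median of -0.15, and leaving out vector tumor 1 gave -0.018. Afdn encodes afadin, which ties nectins to actin. It held 90.5 and 65.5 TPM in the pieces of Ly86 tumor 1 and 57.1, 55.9 and 62.2 TPM in Ly86 tumors 2, 3 and 4. Vector tumor 1 held 71.2 and 110 TPM, vector tumor 2 held 70.9 and 92.3 TPM, and vector tumor 3 held 92.8 TPM. With pieces averaged every Ly86 tumor lay below every vector tumor, and the log2 difference was -0.48 (SE 0.13, 95% interval -0.78 to -0.17, limma adjusted p = 0.437, and 0.0236 with array weights). Of the 6 tested genes, Afdn alone had no overlap of groups, on the lower side, where 5.75% of all tested genes had none. Afdn was thus on the lower side in the estimates, as were Pvr, Nectin2, Nectin3 and Cadm4, and none passed limma without array weights. Over all 14556 tested genes, 8183 were lower and 6373 higher in Ly86 tumors.

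Nectin1 and Nectin4, the nectins of epithelia, were high in the same few libraries. Nectin4 held 10.8 and 8.95 TPM in the pieces of Ly86 tumor 1 and 7.15 TPM in piece 1 of vector tumor 2, against 0.22 to 2.72 TPM in the other 7 libraries. Nectin1 held 6.01, 3.95 and 3.66 TPM in those 3 libraries and 0.20 to 1.22 TPM elsewhere. Those libraries also had the highest sum of Krt5, Krt14, Krt1 and Krt10, the keratinocyte markers, at 2323, 75.0 and 630 TPM against 0 to 39.4 TPM in the other 7. Krt5 and Krt14 were each highest there, but Krt1 and Krt10, at 0.18 and 1.83 TPM in piece 2 of Ly86 tumor 1, were higher in vector tumor 3. Group differences were 0.26 (SE 0.66, limma adjusted p = 0.925) for Nectin4 and 0.33 (SE 0.49, limma adjusted p = 0.844) for Nectin1. Without Ly86 tumor 1 they were -0.32 and -0.085, and without piece 1 of vector tumor 2 they were 0.72 and 0.65. Nectin4 was also at -0.0085 without vector tumor 1. The part of keratinocytes in these values was not tested. Nectin2 was also highest in these 3 libraries, at 24.2 to 26.7 TPM, but piece 2 of vector tumor 2, with 0 TPM of the keratinocyte markers, held 24 TPM.

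**Figure D5:**
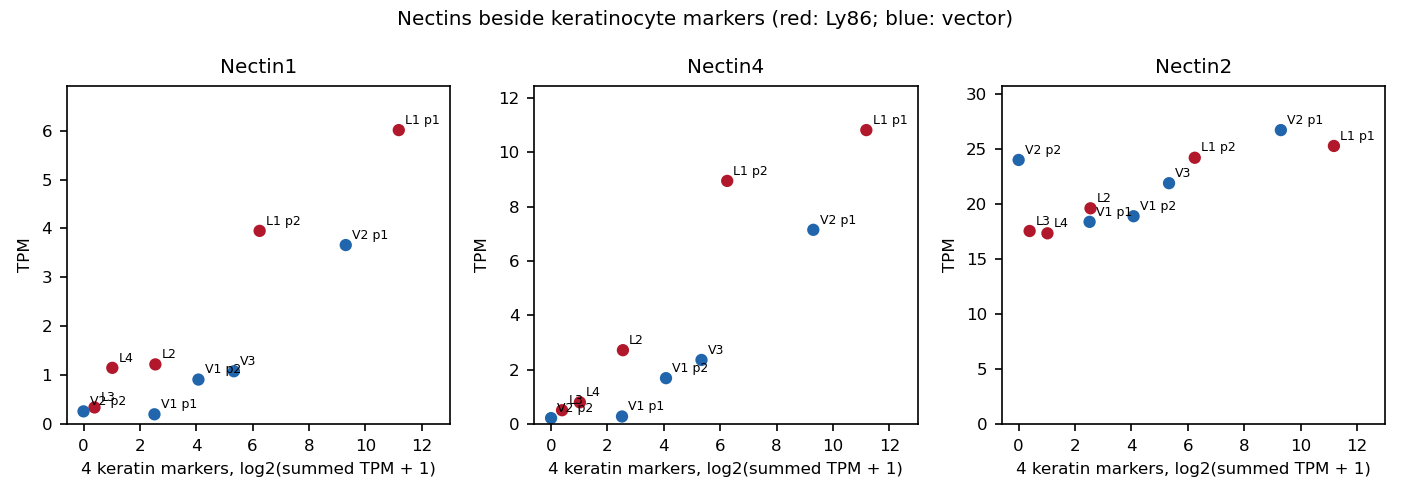
The TPM of Nectin1, Nectin4 and Nectin2 is plotted against the summed level of 4 keratin markers, as log2(TPM + 1), in the 10 libraries. The 3 libraries at the right, with keratin sums of 75.0 TPM or more, have the highest Nectin1 and Nectin4, and Nectin2 lies between 17.3 and 26.7 TPM throughout.

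Cadm3, an adhesion molecule of the nectin-like family, averaged 1.01 log2 units higher in Ly86 tumors (SE 0.35, limma adjusted p = 0.441), with 6.75 TPM in piece 1 of vector tumor 2 and 0.07 to 0.51 TPM in the other vector libraries, and 1.46 (limma adjusted p = 0.0875) without that piece. It was 0.42 (adjusted p = 1) with first pieces alone, 0.72 without vector tumor 1, and passed with array weights at a limma adjusted p of 0.0241. Cadm1, the ligand of the T cell receptor CRTAM, held 67.8 to 151 TPM in Ly86 and 70.4 to 123 TPM in vector libraries (difference 0.14, SE 0.26, limma adjusted p = 0.894). Cadm4 differed by -0.15 (SE 0.23, limma adjusted p = 0.854), and both Cadm1 and Cadm4 changed sign under single alternatives. Crtam and Pvrig, a receptor gene of the same axis, were under the filter. Crtam held 0.10 to 1.12 TPM over all libraries. Pvrig was at 0 in 4 of the 5 vector libraries and at 1.24 TPM in the other, piece 1 of vector tumor 2, and held 0.10 to 1.11 TPM in Ly86 libraries.

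Further lists were taken from the pathway's known biology. Downstream of CD226, 15 listed signaling genes had 9 higher and 6 lower members with a median of 0.078, and 0 passed limma. Lcp2, which encodes the adaptor SLP-76, and Itgb2, the beta chain of the integrin LFA-1 with which CD226 associates, differed by 1.25 (SE 0.50) and 1.16 (SE 0.47). Epb41l2, a protein 4.1 family member, and the kinase gene Akt1 stood at -0.32 (SE 0.13) and -0.29 (SE 0.12). The groups did not overlap for Epb41l2 alone among these 15 genes, on the lower side, where 5.75% of all tested genes had no overlap. Without vector tumor 1, Lcp2 was at 0.61 and Itgb2 at 0.48, and the median of the list was -0.040. Of 6 genes of inhibitory signaling described for TIGIT, 4 were higher and 2 lower with a median of 0.25. Groups did not overlap for 1 of the 6, on the higher side, where 4.71% of all tested genes had no overlap. Inpp5d, the lipid phosphatase SHIP1, differed by 0.87 (SE 0.29) with no overlap of groups, Arrb2, a beta-arrestin, by 0.49 (SE 0.22) and the phosphatase gene Ptpn11 by -0.35 (SE 0.15). Limma adjusted p was between 0.437 and 0.473 for these 7 genes. With first pieces alone Inpp5d was at 0.066, Arrb2 at 0.068 and the median of the 6 genes at -0.0021, and without vector tumor 1 Inpp5d was at 0.54 and Arrb2 at 0.22. With array weights Akt1, Inpp5d and Ptpn11 passed, at limma adjusted p of 0.0398, 0.0426 and 0.0285. Macrophage and T cell markers also stood higher in Ly86 tumors, with median log2 differences of 1.27 and 1.17. Their part in the values of these signaling genes was not tested.

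Of 12 lymphocyte transcription factors, 9 were higher and 3 lower with a median of 0.31. Ets1 stood at -0.26 (SE 0.086), with every Ly86 tumor below the vector tumors, Id2 at 0.30 (SE 0.10), Batf at 0.32 (SE 0.14), again without overlap, and Tbx21, which encodes T-bet, at 0.68 (SE 0.36). On each side 1 of the 12 had no overlap of groups, against 4.71% of all tested genes on the higher and 5.75% on the lower side. Many of the 12 factors are also expressed outside lymphocytes. Effector genes of T and NK cells had 10 of 10 tested members higher with a median of 1.33, 8 of them at an unadjusted p under 0.05 and 4 without overlap of groups, against 5.78% and 4.71% of all tested genes on the higher side. T cell markers stood higher beside them, 11 of 11 with a median of 1.17, and their part in the effector values was not tested. Prf1, perforin, differed by 1.81 (SE 0.56), the chemokine gene Ccl5 by 1.5 (SE 0.50), Nkg7, a protein of cytotoxic granules, by 1.86 (SE 0.69) and Fasl, the death ligand, by 1.00 (SE 0.39). None of the transcription factor or effector genes passed limma. With array weights, among those named, Ets1 (0.0286), Id2 (0.0241), Prf1 (0.0229), Ccl5 (0.0460) and Fasl (0.0343) did, by limma adjusted p. The effector median was 0.80 without vector tumor 1. The summed effector genes, like Tigit and Cd96, were highest in piece 1 of vector tumor 2, at 352 TPM against 146 to 305 TPM in Ly86 libraries.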

How the data were processed

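Reads were aligned with STAR 2.7.10b and quantified with RSEM 1.3.3 on mm39, per the submitters' processing notes. The authors deposited 1 table of 27919 genes whose values are log2(TPM + 1), a scale read from the values, since 2 to the power of the value minus 1 came out in whole hundredths for 99.88% of values (within 0.001 of a hundredth) and summed to nearly 1000000 per library. Here the pieces of a tumor were averaged on the log2 scale, and limma 3.58.1 (R 4.3.3, lmFit and eBayes with trend, Benjamini-Hochberg) was fitted to the 14556 genes that averaged 1 TPM or more across the 7 tumors. The fit was checked on simulated data. Alternatives were other pseudocounts (0.1, 0.5), filters, scaling, piece choices, tumor blocks, array weights, robust eBayes and leaving out tumors. Named genes were the 6 members, Ly86, the related receptors and adhesion partners, up to 4 genes with the smallest p of each other list, and the 3 genes most like each member, predicted genes left out; 1 of these is not reported here. Members and lists were chosen with earlier results of these data known. No sequencing batch was given in the sources used here.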

Additional observations from a re-analysis of the deposited data

Results flagged for a closer look

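Crtam, a receptor of activated T cells that binds Cadm1, stood apart within the Ly86 group in 1 tumor. Ly86 tumor 1 held 0.794 log2(TPM + 1) against 0.322 to 0.356 in the other Ly86 tumors, a gap to the nearest of 0.928 of the whole range, above Dixon's 95% critical value for 4 tumors. In TPM its pieces held 0.55 and 0.94, and Crtam was under the filter on low values. Vector tumor 2 reached nearly the same level, 0.790 log2(TPM + 1), and its piece 1 held 1.12 TPM, the most of the 10 libraries. Among the 18 groups examined this way it was the only such value, and chance alone marks about 1 in 20.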

How the results depend on the processing

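Of the 6 genes, 3 passed limma over all genes with array weights (Cd226, Tigit and Cd96) and 0 under every other setting. These weights were 22.8 for vector tumor 3 and less than 1 for each of the other tumors. All genes past that threshold numbered 1832 with array weights, 1 with first pieces alone, 6 with second pieces alone, 1 without piece 1 of vector tumor 2, and 0 to 2 when single tumors were left out. Members at an unadjusted p under 0.05 numbered 4 with array weights, 3 with second pieces alone, 3 without piece 1 of vector tumor 2, 0 with a minimum mean TPM of 5 (which removes Cd226 and Cd96), and 1 to 4 when single tumors were left out. The cause was not tested. Pvr was 0.0077 with array weights and -0.18 to 0.090 without single tumors. Cadm1 was -0.058 and -0.048 to 0.33 in the same fits. Without single tumors, Cadm4 ranged from -0.28 to 0.044, Nectin1 from -0.085 to 0.63 and Nectin4 from -0.32 to 0.63. The 3 receptor balance values kept their sign and missed the threshold in all 13 alternatives each, but leaving out a tumor allows no p below 0.05 or 0.0667.

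Tumor number as a replicate block gave 1.67 for Cd226 (limma adjusted p = 0.903), 0.044 for Cadm4 and 0 genes past the threshold. It left 645 genes at an unadjusted p under 0.05 against 1565 without the block. Ly86 tumor 4 has no vector tumor of its number, so it drops out of this comparison. Leaving out Ly86 tumor 4 without a block gave the same 1.67 and 0.044. The count of 645 thus does not isolate the effect of blocking. Same-numbered tumors had correlations of deviations from the group means of -0.172, -0.110 and -0.308, and differently numbered ones -0.218 to 0.354. Deviations within a group offset one another, so these correlations cannot decide whether the numbers pair the tumors. No label states a pairing. TPM carries no depth, so the counting error of low values such as those of Cd96 is unknown.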
